A study of Homo sapiens with 16 samples.

Results

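The genes described here are 40 genes of ribosome biogenesis and RNA polymerase I, followed across a U2OS experiment on the transcription factor RFX7. They were chosen by gene symbol from a fixed list, and all 40 were present in each of the authors' 4 deposited tables, among 23396 genes in any table. The poly(A) RNA was sequenced from U2OS, a human osteosarcoma line with wild-type p53. Transfection was with control siRNA (siControl) or with siRNA against RFX7 (siRFX7). Each was then given 10 µM Nutlin-3a, which keeps MDM2 from binding p53 and so stabilises p53, or the solvent DMSO, for 24 h. The 4 groups were therefore siControl with DMSO, siControl with Nutlin-3a, siRFX7 with DMSO and siRFX7 with Nutlin-3a, with 4 libraries each and 16 in all. All groups share 1 cell line and the transfection, and how many siRNA sequences were used was not given in the sources used here. The labels do not say whether the 4 libraries of a group came from separate cultures, so the p-values measure the spread between these libraries, which may be technical.

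Ribosome biogenesis begins in the nucleolus, where RNA polymerase I transcribes the ribosomal DNA into a long precursor. Small nucleolar ribonucleoproteins (snoRNPs) modify that precursor, the small-subunit processome and the large-subunit assembly factors fold and cleave it, and late factors escort the pre-subunits to the cytoplasm. The pathway consumes much of the transcription of a growing cell. Its genes are well-known targets of MYC, and p53 and RNA polymerase I are known to act on each other through the nucleolus.

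The files hold the authors' comparisons of pairs of groups and no value of a single library, so errors are the authors' standard errors (SE). The base mean is the authors' average normalised read count across both groups compared, and a gene was called at an adjusted p under 0.05 over all genes of its table. The siControl table and the siRFX7 table compare Nutlin-3a with DMSO, and the DMSO table and the Nutlin-3a table compare siRFX7 with siControl. Genes with a base mean of 1000 or more are called strongly expressed. The base means of the authors' deposited tables summed to between 27946376 and 35311111. RFX7 was lower with its siRNA, by a log2 fold change of -2.42 ± 0.07 (SE) in the authors' deposited DMSO table and -2.37 ± 0.07 in their Nutlin-3a table. The p53 targets CDKN1A and MDM2 rose with Nutlin-3a by 3.24 ± 0.04 and 2.89 ± 0.04 (log2, SE) in the authors' deposited siControl table. Of the mesenchymal and osteoblast markers, VIM, COL1A1 and SPARC were abundant in the authors' deposited siControl table (base means 84577, 39039 and 31574), whereas COL1A2 was near 0 with 13.2. RUNX2 and ALPL had base means of 432 and 371 there. Of the epithelial markers, the keratins KRT8 and KRT18 were high in the same authors' deposited table, with base means of 24067 and 12140, and EPCAM and CDH1 low, with 191 and 121. Of the blood markers, CD3E was in none of the authors' deposited tables and PTPRC only in the siControl table, with a base mean of 5.21.

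The promoters of these genes are shown first because many of them, though not most, carry a sequence that the choice of genes did not use. The E-box CACGTG, the letters bound by MYC with MAX, reads the same on both strands. RefSeq promoter windows on GRCh38.p14, 250 bases before to 50 bases after a start, were matched by symbol for 34 of the 40 genes. An E-box lay in a window of 16 of these 34 genes (47.1%), against 14.0% of 5422 strongly expressed protein-coding genes and 8.78% of all genes with an entry. GTTGCC, a part of the RFX X-box, searched on both strands, was in 6 of the 34 genes (17.6%) against 16.3% of the 5422, and the letters TTTGAA, a CHR-like element of cell cycle promoters, in 5 (14.7%) against 13.5%. No motif contains another, and a match is a description and not a bound site. The 34 genes had 43 promoter windows, and a gene was counted if any window matched. Sites from 6 genes are printed in 30 bases 5′ to 3′ on the gene's strand, with the E-box in capitals. The first 4 belong to genes that fell with Nutlin-3a and the last 2 to genes that did not pass the test.
UTP20 (chr12:101280083-101280112, plus strand, E-box from base -10): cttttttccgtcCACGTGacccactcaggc
UTP4 (chr16:69132621-69132650, plus strand, from base -16): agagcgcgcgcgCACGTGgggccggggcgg
RRP9 (chr3:51941892-51941921, minus strand, from base -5): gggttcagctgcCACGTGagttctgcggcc
FBL (chr19:39846356-39846385, minus strand, from base 7): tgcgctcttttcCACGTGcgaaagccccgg
NOP10 (chr15:34343130-34343159, minus strand, from base -11): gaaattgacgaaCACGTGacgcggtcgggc
WDR43 (chr2:28894658-28894687, plus strand, from base 4): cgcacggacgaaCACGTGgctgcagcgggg
In each window the first base of the E-box is counted from the annotated start, which is base 1. With Nutlin-3a in siControl the 16 genes with an E-box window had a median log2 fold change of -0.27 and the 18 with an entry and no E-box one of -0.24, from the authors' deposited table.

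The 40 genes were well expressed. From the base mean and fold change in the authors' deposited tables, the fitted level of each group was computed, on the scale of normalised counts of the siControl comparison. Under siControl and DMSO these fitted levels had a median of 4297, from 125 for PPAN to 46773 for NCL. Per kilobase of exon in GENCODE 29, NCL led with 6750, followed by NPM1 with 4666, NOP10 with 4388, DDX21 with 4080 and FBL with 3888 fitted counts. RRN3, TAF1D and WDR12 were between 332 and 356 on that scale per kilobase. NOP2 and PPAN stood apart at 41.0 and 48.2 per kilobase. More than 50% of the exon bases of these 2 genes also belong to another gene on the same strand, 54.4% for NOP2 (AC006064.6) and 59.8% for PPAN (PPAN-P2RY11 and P2RY11). How the authors' counting split such reads was not given in the sources used here, so the values of NOP2 and PPAN are uncertain. Whether the counting used strand was not given either, and NHP2 and HEATR1 share 27.4% and 23.2% of their exon bases with antisense genes.

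With Nutlin-3a in siControl the pathway was lower almost throughout, by a modest amount. The authors' deposited siControl table shows that 32 of the 40 genes (80.0%) fell, none rose and 8 did not pass the test. The background was 19.6% of all 23353 genes lower and 18.3% higher, and 41.1% lower and 22.4% higher among 7050 strongly expressed genes, to which 38 of the 40 belong. The median log2 fold change of the 40 genes in the authors' deposited table was -0.27, which is 83.2% of the DMSO level, against 0.01 for all genes and -0.06 for the strongly expressed. The values ran from -0.45 for NOP58 to 0.08 for WDR43, with an SD over genes of 0.12 and a median SE of 0.05. Counts are scaled within libraries, so a fall shared by all RNA of a cell would not be seen, and in bulk RNA a shift in the shares of cells at each cell cycle stage and a change within cells cannot be told apart.

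**Figure D1:**
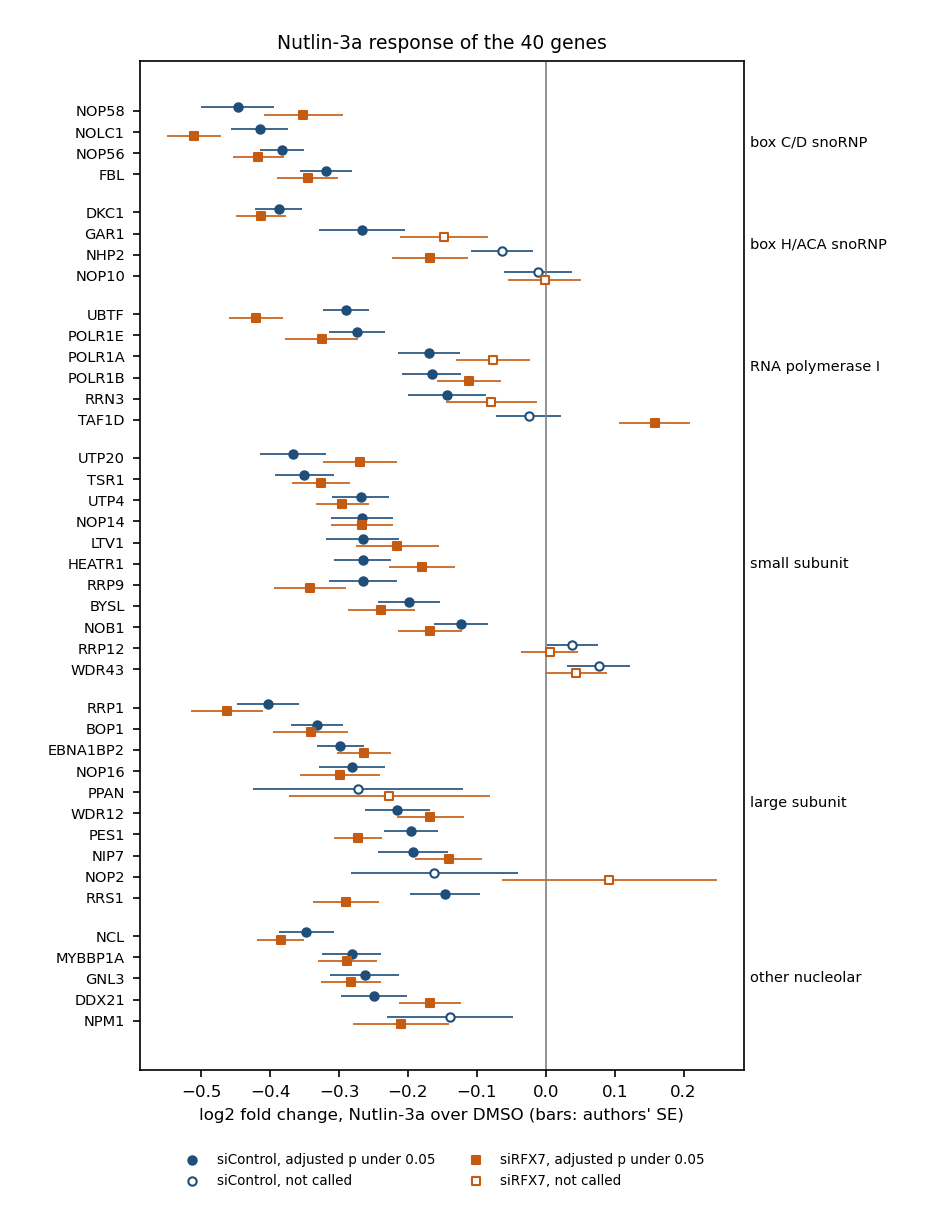
Log2 fold change of each gene with Nutlin-3a over DMSO (x axis), by role (y axis), in siControl (circles) and siRFX7 (squares); bars are the authors' SE and filled points have an adjusted p under 0.05. Nearly all points lie left of 0, from -0.51 for NOLC1 to 0.16 for TAF1D, both in siRFX7.

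All 4 genes of the box C/D snoRNP group fell in both Nutlin-3a comparisons. Their products form or assist the snoRNPs that carry out 2′-O-methylation of ribosomal RNA. NOP58 (chromosome 2, 202265716 to 202303666, plus strand), a core scaffold protein, had fitted levels of 7984 with DMSO and 5856 with Nutlin-3a in siControl. That is a log2 fold change of -0.45 ± 0.05 (SE; adjusted p 5.69e-16, DESeq2 Wald test) in the authors' deposited table, the lowest of the 40 genes there. Its partner NOP56 (chromosome 20, 2652145 to 2658393, plus strand) went from 11637 to 8921, at -0.38 ± 0.03 (adjusted p 3.44e-32) in the authors' deposited table. FBL, the methyltransferase fibrillarin, had -0.32 ± 0.04 and NOLC1, a snoRNP chaperone, -0.42 ± 0.04 in the same authors' deposited table. Box C/D was thus the role with the lowest median, -0.40, with 4 of 4 genes called.

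Among the box H/ACA genes, which form the pseudouridylation snoRNPs, 2 genes fell and 2 did not pass the test. DKC1, the pseudouridine synthase dyskerin, fell by 0.39 ± 0.03 (SE) and GAR1 by 0.27 ± 0.06 on the log2 scale with Nutlin-3a in the authors' deposited siControl table. The small core proteins NHP2 and NOP10 were at -0.06 ± 0.05 and -0.01 ± 0.05 there and did not pass the test (adjusted p 0.292 and 0.898 in the authors' deposited table). NOP10 had fitted levels of 2431 and 2412 normalised counts, while DKC1 had 8855 and 6770. Whether these genes differ from each other was not tested, since all are measured in the same libraries.

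Of 6 genes of RNA polymerase I and its initiation factors, 5 fell with Nutlin-3a in siControl. UBTF (chromosome 17, 44205033 to 44221626, minus strand), the factor that binds ribosomal DNA, had fitted levels of 9251 and 7566 and a log2 fold change of -0.29 ± 0.03 (SE; adjusted p 7.12e-17) in the authors' deposited table. The polymerase subunit POLR1E was at -0.27 ± 0.04 in the same authors' deposited table. The 2 large catalytic subunits had -0.17 ± 0.05 (POLR1A) and -0.17 ± 0.04 (POLR1B) in the authors' deposited table. RRN3, which brings the polymerase to the promoter, had -0.14 ± 0.06 (adjusted p 0.0318) there, a call lost when the authors' deposited fold changes were centred on the median gene (adjusted p 0.0964 by a two-sided normal test). TAF1D, a subunit of the SL1 promoter complex, was at -0.02 ± 0.05 (adjusted p 0.745) in the authors' deposited table. The median of these 6 genes was -0.17.

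In the small-subunit group, which holds processome and late maturation factors, 9 of 11 genes fell. UTP20 went from 4052 to 3142 normalised counts, at -0.37 ± 0.05 (SE; adjusted p 1.31e-13) in the authors' deposited siControl table. TSR1, a late pre-subunit factor, had -0.35 ± 0.04 in that authors' deposited table. UTP4, NOP14, LTV1, HEATR1 and RRP9 all lay at -0.27 in the authors' deposited table, BYSL at -0.20 and NOB1, the nuclease of the last small-subunit cleavage, at -0.12. The exceptions were RRP12, an export factor, at 0.04 ± 0.04 and WDR43, a processome protein, at 0.08 ± 0.05 in the authors' deposited table. WDR43 had fitted levels of 7227 with DMSO and 7621 with Nutlin-3a, while UTP4 and HEATR1, which act with it early in the processome, both fell.

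Large-subunit assembly factors fell in 8 of 10 cases, and the other 2 were NOP2 and PPAN, whose reads are uncertain. RRP1 (chromosome 21, 43789513 to 43805293, plus strand), a nucleolar processing factor, went from 3052 to 2308 normalised counts, at -0.40 ± 0.04 (SE; adjusted p 2.07e-18) in the authors' deposited siControl table. The 3 genes of the PeBoW complex, which is needed for maturation of the large-subunit RNA, all fell, with -0.33 ± 0.04 for BOP1, -0.22 ± 0.05 for WDR12 and -0.20 ± 0.04 for PES1 in the authors' deposited table. EBNA1BP2, NOP16, NIP7 and RRS1 had -0.30, -0.28, -0.19 and -0.15 in the same authors' deposited table. The 2 uncertain genes had -0.16 ± 0.12 for NOP2 and -0.27 ± 0.15 for PPAN in the authors' deposited table, and neither passed the test.

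Of the 5 abundant nucleolar proteins, 4 fell with Nutlin-3a in siControl. NCL (nucleolin; chromosome 2, 231453531 to 231483641, minus strand) went from 46773 to 36758 normalised counts, at -0.35 ± 0.04 (SE; adjusted p 2.68e-17) in the authors' deposited table. MYBBP1A, a nucleolar repressor of RNA polymerase I, GNL3 (nucleostemin) and the helicase DDX21 had -0.28, -0.26 and -0.25 in that authors' deposited table. NPM1 (nucleophosmin) was at -0.14 ± 0.09 and did not pass the test (adjusted p 0.245 in the authors' deposited table). Its SE was the largest of the 38 strongly expressed ones in that comparison.

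Other ribosome biogenesis genes, listed from knowledge of the pathway with 98 measured, were mostly lower as well. By the authors' deposited siControl table, 70 of 98 fell (71.4%) and 2 rose (2.04%) with Nutlin-3a, with a median of -0.20. The background was 19.6% lower and 18.3% higher over all genes, and 41.1% and 22.4% for strongly expressed genes. Lower calls numbered 6 of 10 for RNA polymerase I, 25 of 39 for the small subunit, 33 of 41 for the large subunit and 6 of 8 for snoRNP assembly. TCOF1, the nucleolar protein treacle that joins polymerase I transcription to snoRNP function, had -0.63 ± 0.04 (SE), TAF1A, an SL1 subunit, -0.46 ± 0.09 and BRIX1 -0.46 ± 0.05 in the authors' deposited table. The 2 that rose were RIOK3, a kinase of late small-subunit maturation, at 0.29 ± 0.06 and NOP53 at 0.23 ± 0.05 in the authors' deposited table.

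**Figure D2:**
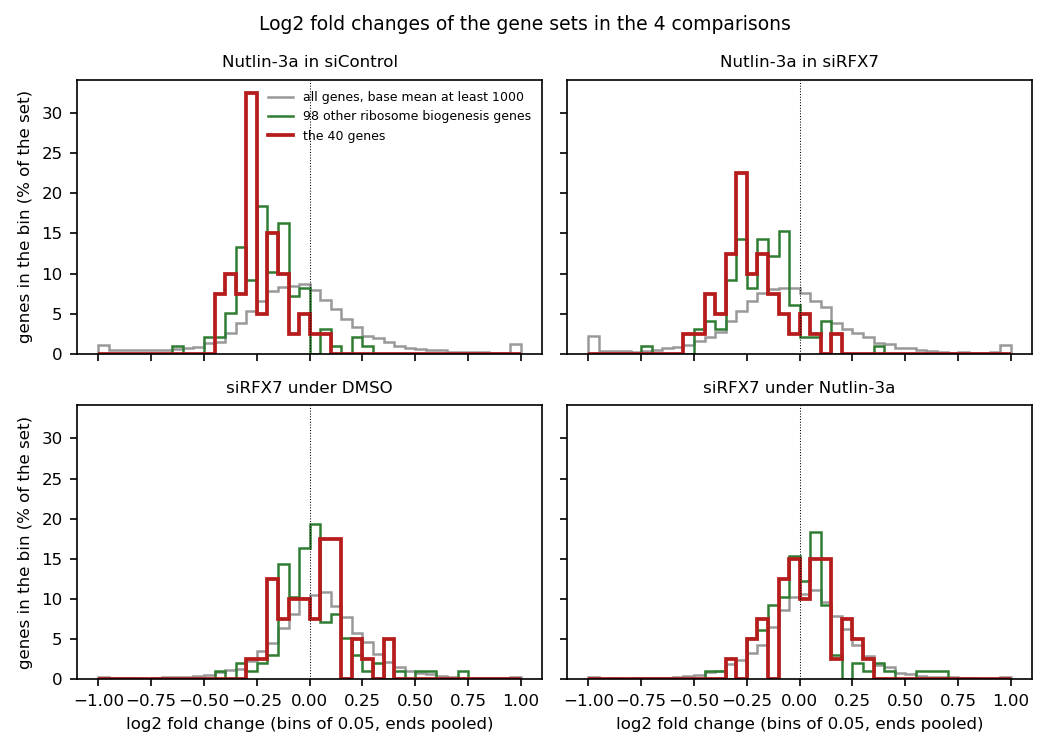
Share of genes (y axis, % of the set) in bins of log2 fold change (x axis) for the 40 genes, the 98 other ribosome biogenesis genes and all strongly expressed genes, in each comparison; values beyond 1 in size are pooled in the end bins. The 40 genes are shifted left in both Nutlin-3a panels (median -0.27 in each) and lie around 0 in both knockdown panels (medians 0.04).

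Nutlin-3a also lowered most of these genes in cells with siRFX7, in libraries that the siControl comparison does not share. In the authors' deposited siRFX7 table, 31 of 40 genes fell and 1 rose, with a median of -0.27. There the background was 20.3% lower and 18.7% higher over all genes, and 42.0% lower and 21.7% higher for strongly expressed genes. Both authors' deposited tables called 29 of the 40 genes lower, and 38 had the same sign. NOP10, WDR43, RRP12, NOP2 and PPAN were called in neither. These shared calls and signs were not counted over all genes, so no background stands beside them. The lowest value in siRFX7 was that of NOLC1 (chromosome 10, 102152176 to 102163871, plus strand), at -0.51 ± 0.04 (SE; adjusted p 3.03e-37) in the authors' deposited table, followed by RRP1 at -0.46 ± 0.05 and UBTF at -0.42 ± 0.04. Across the 40 genes the responses in siControl and siRFX7 had a Pearson correlation of 0.84, a description over genes that share libraries within each table.

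The test of whether RFX7 knockdown altered the Nutlin-3a response was the difference of both deposited log2 fold changes, siRFX7 minus siControl. None of the 40 genes passed it (two-sided normal test, Benjamini-Hochberg adjustment over 21339 genes, lowest adjusted p 0.355), against 0.937% of all genes. Of the 6554 strongly expressed genes in this test, 1.75% were called lower and 0.38% higher. At an unadjusted p under 0.05 there were 3 of 40 genes (7.50%), against 6.32% of all genes tested and 12.2% of the strongly expressed. The 3 genes were TAF1D, UBTF and RRS1. TAF1D (chromosome 11, 93729948 to 93784391, minus strand) was at -0.02 ± 0.05 in the authors' deposited siControl table and rose by 0.16 ± 0.05 (adjusted p 0.00772) in their siRFX7 table. Its difference was 0.18, with a 95% interval of 0.05 to 0.32 (adjusted p 0.355). For UBTF the difference was -0.13 (95% interval -0.23 to -0.03, adjusted p 0.408), and for RRS1 -0.14 (-0.28 to -0.01, adjusted p 0.737). Over the 37 genes with an average base mean of 1000 or more the 95% intervals of the difference reached no further than -0.30 and 0.32. Missing the threshold does not show that the responses were alike, and the intervals give the size that these libraries could leave unseen.

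With RFX7 knockdown some of these genes rose and others fell. Under DMSO the authors' deposited table called 8 of 40 lower and 11 higher with siRFX7, with a median of 0.04. The background was 17.5% lower and 19.9% higher over all 19511 genes, and 20.3% lower and 35.6% higher for strongly expressed genes, so the 8 lower genes were near both shares, and the 11 higher genes (27.5%) lay between the share of all genes and that of strongly expressed ones. Under Nutlin-3a the authors' deposited table called 6 lower and 8 higher, with a median of 0.04. The background was 15.4% lower and 17.2% higher over all genes, and 19.2% and 33.5% for strongly expressed genes. Both shares of the 40 genes were therefore near those of all genes and below those of strongly expressed ones. These 2 tables share no library, and 33 of 40 genes had the same sign in both. Called in the same direction under both treatments were 4 higher genes (RRS1, RRP12, UTP4 and NOP10) and 5 lower genes (NPM1, TSR1, RRP1, NOP56 and NOB1), and no gene was called in opposite directions. Here too, shared signs and calls were not counted over all genes. RFX7 remained at 18.6% and 19.4% of the control level in these authors' deposited tables. The epithelial markers CDH1 and EPCAM rose with siRFX7 too, by 0.85 ± 0.13 (log2, SE) and 0.54 ± 0.11 in the authors' deposited DMSO table and 1.10 ± 0.12 and 0.41 ± 0.11 in their Nutlin-3a table, and their part in these results was not tested.

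**Figure D3:**
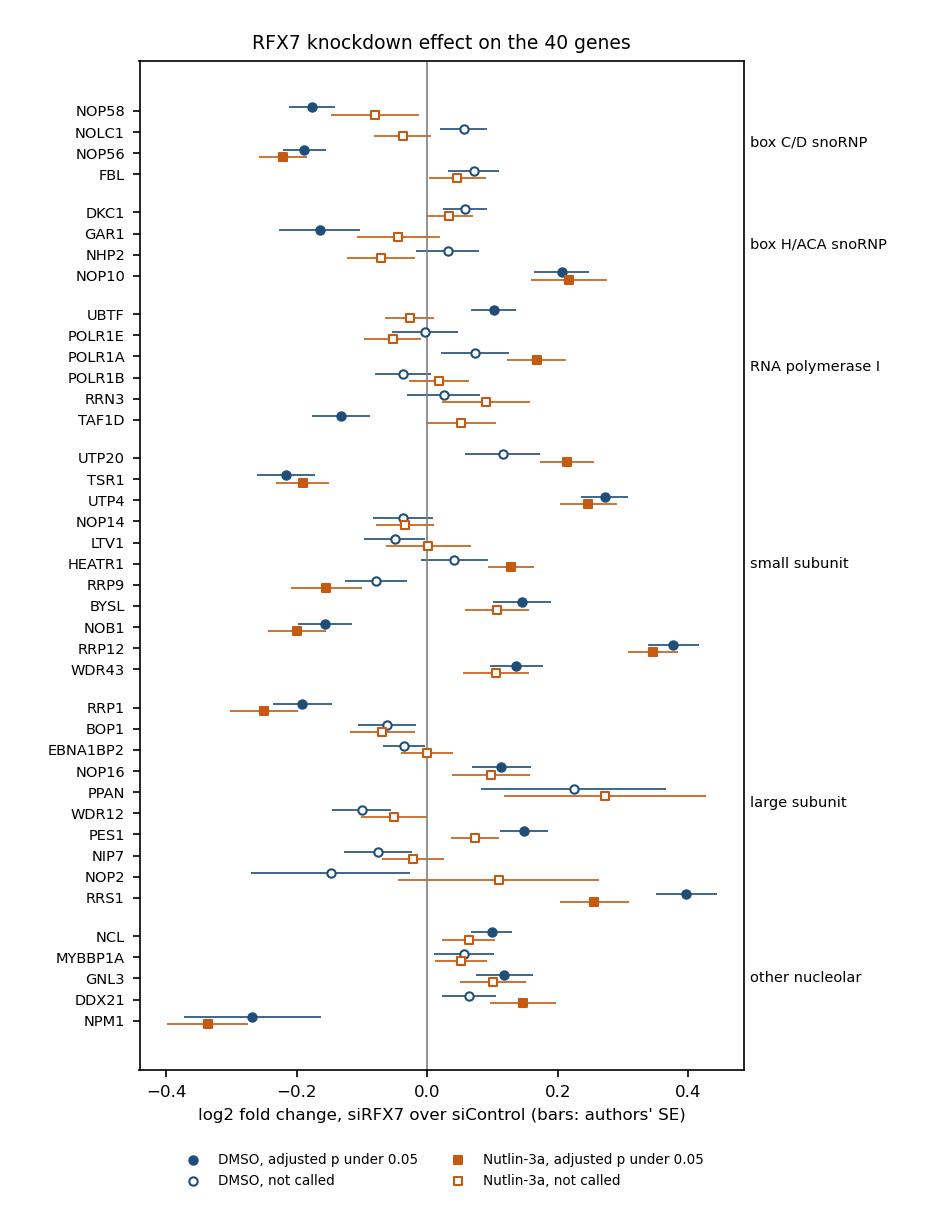
Log2 fold change of each gene with siRFX7 over siControl (x axis), by role (y axis), under DMSO (circles) and Nutlin-3a (squares); bars are the authors' SE and filled points have an adjusted p under 0.05. Points fall on both sides of 0, with NPM1 farthest left under both treatments and, among called genes, RRS1 and RRP12 farthest right.

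The higher genes came from different steps of the pathway. RRS1 (chromosome 8, 66429028 to 66430733, plus strand), which helps place the 5S ribonucleoprotein in the large subunit, had fitted levels of 1828 in siControl and 2407 in siRFX7 under DMSO. It rose by 0.40 ± 0.05 on the log2 scale (SE; adjusted p 2.17e-16) in the authors' deposited DMSO table and by 0.26 ± 0.05 in their Nutlin-3a table. RRP12 (chromosome 10, 97356358 to 97426076, minus strand) went from 5255 to 6827 under DMSO, at 0.38 ± 0.04 (adjusted p 9.9e-20) in the authors' deposited DMSO table and 0.35 ± 0.04 in their Nutlin-3a table. By the same authors' deposited tables, in that order, UTP4 had 0.27 ± 0.04 and 0.25 ± 0.04, and NOP10 0.21 ± 0.04 and 0.22 ± 0.06. RRP12 and NOP10, both higher with siRFX7, were also among the genes that passed no test with Nutlin-3a. A further 7 genes were called higher under DMSO only: PES1, BYSL, WDR43, GNL3, NOP16, UBTF and NCL, between 0.10 and 0.15 in the authors' deposited table. Under Nutlin-3a only, UTP20 (0.21), POLR1A (0.17), DDX21 (0.15) and HEATR1 (0.13) were called higher in the authors' deposited table. Those called under 1 treatment are not shown to differ between treatments, as the test of the difference found none.

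The lower genes were led by NPM1 (chromosome 5, 171387116 to 171411137, plus strand), a histone chaperone that also exports ribosomal subunits. Its fitted levels under DMSO were 17862 in siControl and 14828 in siRFX7. The log2 fold change was -0.27 ± 0.11 (SE; adjusted p 0.0309) in the authors' deposited DMSO table, and -0.34 ± 0.06 (adjusted p 7.45e-07) in their Nutlin-3a table. In the same order of the authors' deposited tables, RRP1 had -0.19 ± 0.04 and -0.25 ± 0.05, and NOP56 -0.19 ± 0.03 and -0.22 ± 0.04. TSR1 had -0.22 ± 0.04 and -0.19 ± 0.04, and NOB1 -0.16 ± 0.04 and -0.20 ± 0.04 in the authors' deposited tables. NOP58 (-0.18), GAR1 (-0.17) and TAF1D (-0.13) were called lower under DMSO only and RRP9 (-0.15) under Nutlin-3a only in the authors' deposited tables. Among the box C/D genes NOP56 and NOP58 were therefore lower under DMSO while FBL and NOLC1, at 0.07 and 0.06 in the authors' deposited table, did not pass the test.

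The heptamer GTATCTA was searched in 3′ UTRs because an earlier look at these same fold changes had picked it out among genes lower with siRFX7, so it is no independent evidence. It was in the GENCODE 29 3′ UTR of 2 of the 40 genes (5.0%), against 8.75% of 11281 protein-coding genes with an annotated 3′ UTR and a base mean of 100 or more. The sites of TSR1 and POLR1A are printed 5′ to 3′ beside a site of RFX7 itself, in RNA sense with T for U and the heptamer in capitals; the positions are those of the heptamer on GRCh38.
RFX7 (chr15:56093311-56093317, minus strand): tgtagcacactGTATCTAaagacatatgt
TSR1 (chr17:2323910-2323916, minus strand): aaatgtcttcaGTATCTAaagacactgaa
POLR1A (chr2:86022762-86022768, minus strand): agtgagaccccGTATCTAcaaaaattagc
TSR1 was lower under both treatments, while POLR1A was at 0.07 ± 0.05 (SE) in the authors' deposited DMSO table and higher by 0.17 ± 0.05 in their Nutlin-3a table. Without these 2 carriers the authors' deposited DMSO table had 7 lower and 11 higher genes, and their Nutlin-3a table had 5 lower and 7 higher.

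The 98 other ribosome biogenesis genes were called about as often as all genes with siRFX7, and were called higher less often than strongly expressed genes. By the authors' deposited tables, 18 were lower (18.4%) and 17 higher (17.3%) under DMSO, against 17.5% and 19.9% of all genes. By their Nutlin-3a table, 17 were lower and 17 higher (17.3% each), against 15.4% and 17.2% of all genes. Of strongly expressed genes, 20.3% were lower and 35.6% higher under DMSO, and 19.2% and 33.5% under Nutlin-3a. The medians of the 98 genes in the authors' deposited tables were 0.00 under DMSO and 0.02 under Nutlin-3a. The largest rises were those of DDX10, a processome helicase, at 0.72 ± 0.04 (SE) and 0.70 ± 0.05, ZNHIT6, a box C/D assembly factor, at 0.55 ± 0.05 and 0.61 ± 0.06, and RSL24D1 at 0.53 ± 0.07 and 0.60 ± 0.06, in the authors' deposited DMSO table and their Nutlin-3a table. The lowest were RIOK2, a kinase of small-subunit maturation, at -0.44 ± 0.07 and -0.39 ± 0.07, and SENP3, a nucleolar SUMO protease, at -0.33 ± 0.06 and -0.40 ± 0.07 in the authors' deposited tables. RIOK2 carries the heptamer GTATCTA in its 3′ UTR, and SENP3 does not. The other carriers among the 98 were BMS1, DDX18, DDX52, KRR1, PELP1, POLR1D, WDR3 and WDR36. The part of the heptamer in these values was not tested.

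Put on 1 scale, the 4 groups show how treatment and knockdown combine. With siControl and DMSO as 100%, the median fitted level of the 40 genes was 83.2% for siControl with Nutlin-3a, 103% for siRFX7 with DMSO and 85.6% for siRFX7 with Nutlin-3a. The lowest of the 4 groups was siControl with Nutlin-3a for 20 genes and siRFX7 with Nutlin-3a for 17. RRP1, lower in all 4 comparisons, had 75.6%, 87.6% and 63.5% in the same order, the last the lowest level of any of the 40 genes. NOP56 had 76.7%, 87.7% and 65.7%, and TSR1 78.4%, 86.1% and 68.6%. RRP12 had 103%, 130% and 130%, and RRS1 90.3%, 132% and 108%. UTP4 had 83.0%, 121% and 98.4%, so its level with both siRFX7 and Nutlin-3a was near that of untreated control cells.

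**Figure D4:**
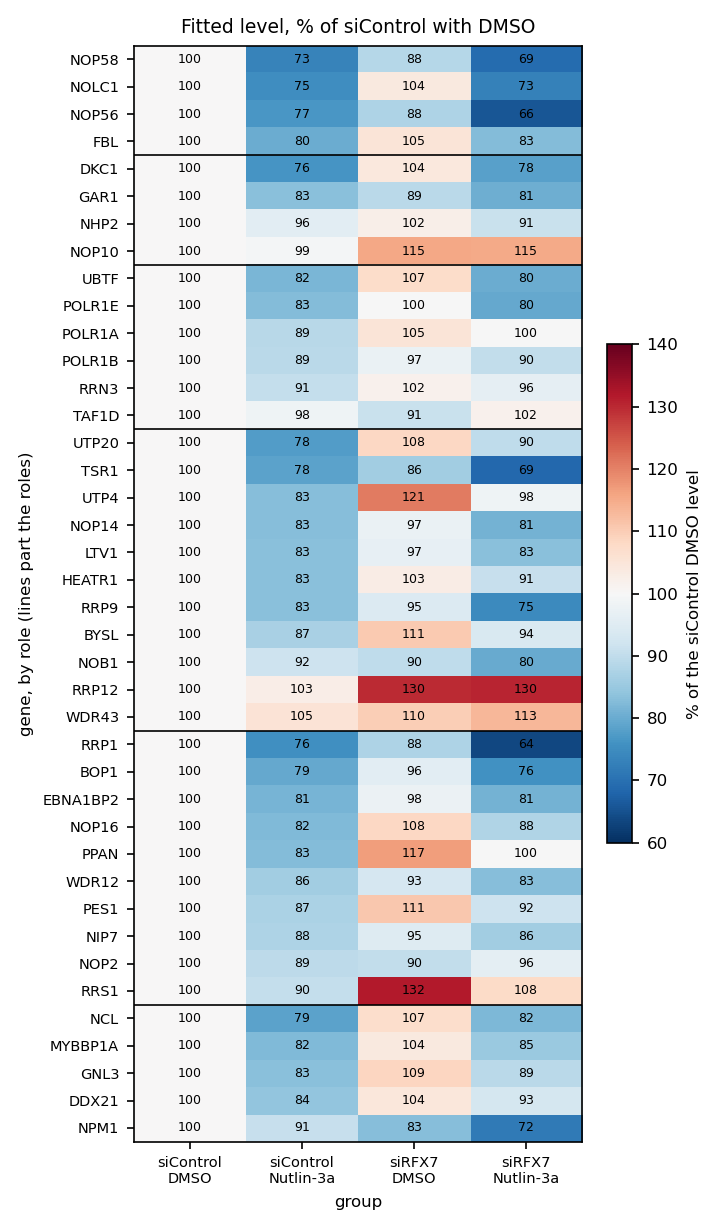
Fitted level of each gene (rows, grouped by role) in the 4 groups (columns), as a percentage of siControl with DMSO, computed from the authors' base means and fold changes; colours run from 60% (blue) to 140% (red). Both Nutlin-3a columns are mostly blue, and RRP1 with siRFX7 and Nutlin-3a has the lowest level, 63.5%.

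Of the 40 genes 9 also hold snoRNA genes, 35 annotated entries in all in GENCODE 29 on the same strand: NOP56, NOP58, DKC1, TAF1D, WDR43, TSR1, PPAN, NCL and GNL3. TAF1D has 8 of them, GNL3 6 and NOP56 5, so these transcripts yield guide RNAs as well as, or in place of, a protein message. Their responses to Nutlin-3a spanned the whole range of the 40 genes, from NOP58 (-0.45) to WDR43 (0.08) in the authors' deposited siControl table. There 6 of 9 host genes fell, with a median of -0.35, against 26 of 31 other genes, with a median of -0.27. The difference between hosts and other genes was not tested.

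MYC, MXD4 and PNRC1, regulators of growth and ribosome synthesis, are given for reference. MYC, the activator of many ribosome biogenesis genes, was at -0.06 ± 0.04 (SE; adjusted p 0.294) in the authors' deposited siControl table and fell by 0.27 ± 0.04 in their siRFX7 table. MXD4, which competes with MYC for MAX, rose by 2.13 ± 0.08 in the authors' deposited siControl table and 0.69 ± 0.09 in their siRFX7 table. PNRC1, reported to block ribosomal RNA maturation in the nucleolus, had rises of 1.54 ± 0.07 and 0.25 ± 0.10 (same authors' deposited tables). The 40 genes had the same median in both, -0.27, beside these unequal rises; their relation to the 40 genes was not tested.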

How the data were processed

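The 16 libraries were grouped by title. Per the labels' protocols they were made with a stranded poly(A) kit. Per the submitters' processing notes, reads were trimmed (Trimmomatic 0.39, cutadapt 2.10), counted with featureCounts 1.6.5 on hg38 and compared with DESeq2 1.20.0; the aligner and annotation were not given in the sources used here. The 4 deposited tables each compare 2 groups of 4 libraries and hold base means (a signal: mean normalised counts), log2 fold changes with SE, Wald statistics (a score), p-values and adjusted p-values, all computed by the authors and used as deposited. Whether the log2 fold changes were shrunken was not given; each deposited log2 fold change divided by its SE gave the deposited statistic. The direction of each table followed from RFX7, CDKN1A and MDM2, so these are checks of the labels only in size.

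Computed here (Python 3.11.15, pandas 2.3.3, scipy 1.17.1) were the difference of the Nutlin-3a responses across all 21339 genes in both tables, with SE as the root of summed squared SEs, checked on simulated data, and fitted group levels. A pair of group levels averages to the base mean and has the fold change as ratio; siRFX7 levels were chained to the siControl table by the knockdown fold changes. Formed from the 2 knockdown comparisons instead, the difference was the same to within 0.00383 on the log2 scale over the 40 genes. Both routes use the same libraries, so this checks the arithmetic and is no independent evidence. Positions and exon lengths are from GENCODE 29 on GRCh38, where all 40 symbols matched. Alternatives were stricter calls, other gene filters, centring and robust scaling. Named genes were any of the 40, with the 3 lowest and highest called values per comparison and the most abundant gene of each role in full, the 3 extremes of the wider list, checks and regulators. The 40 genes, lists and tests were chosen with earlier results of these data known.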

Additional observations from a re-analysis of the deposited data

Results flagged for a closer look

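RCL1 responded differently to Nutlin-3a with and without RFX7 knockdown. It is a small-subunit factor among the 98 other ribosome biogenesis genes. Its log2 fold change was 0.14 ± 0.07 (SE) in the authors' deposited siControl table and -0.21 ± 0.07 in their siRFX7 table. The difference, siRFX7 minus siControl, was -0.36 (adjusted p 0.0170, two-sided normal test with Benjamini-Hochberg adjustment). At an adjusted p under 0.01 it was not called. Among the checks and regulators, the difference was -1.44 for MXD4, -1.30 for PNRC1, -0.26 for CDKN1A and -0.21 for MYC. All were called lower by the same test (adjusted p 0.0410 for MYC), which compares responses and not levels. As a percentage of siControl with DMSO, CDKN1A had 946% for siControl with Nutlin-3a, 151% for siRFX7 with DMSO and 1191% for siRFX7 with Nutlin-3a. Its fitted level was thus higher with siRFX7 under both treatments. In the same order MYC had 96.1%, 113% and 93.7%, MXD4 438%, 88.7% and 143%, and PNRC1 292%, 73.4% and 87.2%. Single libraries could not be examined for outlying values, since the tables hold comparisons only.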

How the results depend on the processing

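No paired analysis was possible because the tables hold no value of a single library; for the same reason leaving out each replicate and another normalisation were not run. A minimum size of 0.25 (log2) changed the counts most. Of the 40 genes it left 22 and 21 in the siControl and siRFX7 tables, and 4 and 3 in the DMSO and Nutlin-3a tables. Of the 98 other genes it left 33 and 35 for Nutlin-3a in siControl and siRFX7, and 11 in each knockdown comparison. Of all genes it left 4501 of 7288 and 4020 of 6625 in the knockdown comparisons under DMSO and Nutlin-3a. For the difference of responses, an adjusted p under 0.01 left 125 of 200 genes and 0 of 1 in the wider list. Centring on the median gene (at most 0.03) lost RRN3 and POLR1B for Nutlin-3a and NOP16 for siRFX7 and gained WDR12 there. An adjusted p under 0.01 left 30 of the 40 genes in each Nutlin-3a comparison, and 13 and 12 for siRFX7 under DMSO and Nutlin-3a. Under DMSO it lost NPM1, GAR1, UBTF, TAF1D, NOP16 and GNL3. GAR1 was gained for Nutlin-3a in siRFX7 with a base mean of at least 100, or with only genes in all 4 comparisons. No call of the 40 genes reversed under these alternatives. Leaving out NOP2 and PPAN was an alternative chosen after seeing the data. It could not change a count of called genes, because neither was called in any comparison.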

Other observations

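The deposited SE of some well-expressed genes was wide in the comparisons that share 1 group. For NPM1 it was 0.091 and 0.105 in the authors' deposited tables that use siControl with DMSO, and 0.069 and 0.062 in those without it. For NOL9 and MDN1 it was 0.14 and 0.13 with Nutlin-3a in siRFX7 and 0.14 and 0.12 with siRFX7 under DMSO, which share the siRFX7 DMSO libraries, against 0.06 and 0.06 with Nutlin-3a in siControl in the authors' deposited tables. No value of a single library is at hand to look further.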
